A study of Drosophila melanogaster with 36 samples.

Results

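The thioredoxin system of Drosophila melanogaster was followed through 5 genes: dhd, TrxT and Trx-2, which encode thioredoxins, and Trxr-1 and Trxr-2, which encode thioredoxin reductases. They were picked by symbol and make up 5 of the 17582 named genes counted in each library. The reductase genes are spelled Trxr-1 and Trxr-2 in the count files and Trxr1 and Trxr2 in the genome annotation, which also writes Trx-2 as Trx2.

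Whole flies were sampled on days 1, 2 and 7 of a study in which they inhaled CMIT/MIT, a mixture of isothiazolinone biocides, as an aerosol of 330 mg/m3 given for 1 hour. The 12 groups were exposed females and exposed males on each of the 3 days, and females and males that breathed filtered air on the same days, with 3 libraries in each group. All flies, exposed and air alike, carried the label WT with no strain, age or number of flies per library, and no label says whether replicates were separate cages or pools, so p-values measure the spread between these libraries only. Sex was read from a letter in the library titles, the start of the day count is not stated, and each library counts 3′ ends of polyadenylated RNA.

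Thioredoxins are small proteins that reduce disulfide bonds in other proteins, and thioredoxin reductases recharge them with electrons from NADPH. Flies have no glutathione reductase, so the same reductase and thioredoxin also keep glutathione reduced. Isothiazolinones react with thiol groups, the chemical group on which thioredoxin and glutathione work. Among the thioredoxins, dhd (deadhead) is the ovary form, which the egg uses to complete meiosis and to strip protamines from the sperm nucleus at fertilization. TrxT is the testis form, found in the nuclei of spermatocytes, and Trx-2 is the general form. Trxr-1 is an essential gene whose alternative starts give cytosolic and mitochondrial enzymes, and Trxr-2 is its less studied paralogue.

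In dm6 coordinates dhd (FBgn0011761) lies at X:5312171-5313125 on the plus strand and TrxT (FBgn0029752) at X:5310581-5311888 on the minus strand. They stand head to head with 282 bases between them. Trx-2 (FBgn0040070) lies at 2L:9613166-9616404, Trxr-1 (FBgn0020653) at X:8242528-8248033 and Trxr-2 (FBgn0037170) at 3L:22550226-22552019, all on the plus strand. The only overlap with another gene was between Trxr-1 and sni, on the other strand, over 1489 bases at the 5′ part of Trxr-1. No annotated neighbour covered the 3′ end of any of the 5 genes, which is where these libraries place their reads. Whether counting used strand is not given in the sources used here.

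Depth ranged from 4681333 to 17182966 counts per library, so 3 counts, the most that a count of 0 allows, corresponded to 0.175 to 0.641 CPM (read counts scaled to a common library total), for counting error only. Of the 36 libraries, 34 held the transcripts of the sex in their title. roX1, a non-coding RNA that males use to raise the output of their X chromosome, ranged from 0.837 to 7.01 CPM in 17 female libraries and from 847 to 1721 CPM in 17 male libraries, and the yolk protein gene Yp1 from 3248 to 15752 CPM in females and from 0.944 to 176 CPM in males. Replicate 1 of the exposed females of day 2 and replicate 3 of the exposed males of day 2 held both, with over 100 CPM of roX1 and over 1000 CPM of Yp1. They are called the mixed libraries below, and test results for groups that hold them are also given without them. The defining markers of both gonads were present: all 18 ovary and oocyte genes had counts in every one of the 17 female libraries, and all 21 testis and sperm genes in every one of the 17 male libraries.

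The ovary and testis forms were transcripts of 1 sex, and so was one gene of the reductase pair. In the 17 female libraries dhd ranged from 3489 to 6444 CPM of all counts, with a median of 4959.7 CPM. In the 17 male libraries it ranged from 0.515 to 38.7 CPM, with a median of 7.29 CPM. The ranges did not come near each other, and every male library still held dhd counts, 6 to 377 of them. TrxT ran the other way, with 0 to 1.22 CPM in the 17 female libraries and 37.1 to 104.6 CPM in the 17 male libraries. Of the female libraries, 9 had any TrxT count, at most 12. These are bulk values of whole flies, in which fewer cells of a type and less RNA per cell cannot be told apart.

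Trxr-2 was a male transcript in these flies. It had 1 count in all 17 female libraries together, in replicate 2 of the exposed females of day 7. All 17 male libraries held it, at 2.99 to 12.3 CPM and 14 to 190 counts each, 1249 counts in total. Among air flies the 9 female libraries had 0 counts, so Trxr-2 was at least 30.1-fold lower in them than in air males, with females set to 3 counts in each library. Among exposed flies outside the mixed libraries, the depth-scaled counts of males were 579.6 times those of females, with an exact 95% interval for counting error of 103.6 to 22938 that is wide because females gave a single count.

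Trx-2 and Trxr-1 were found in every library of both sexes. Trx-2 ranged from 156 to 257 CPM in the 17 female libraries, with a median of 188.7 CPM, and from 72.1 to 130.0 CPM in the 17 male libraries, with a median of 114.0 CPM. Trxr-1 ranged from 161 to 524 CPM in females, with a median of 381 CPM, and from 196 to 390.0 CPM in males, with a median of 261 CPM. The ranges of the sexes did not overlap for Trx-2 and overlapped widely for Trxr-1.

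**Figure D1:**
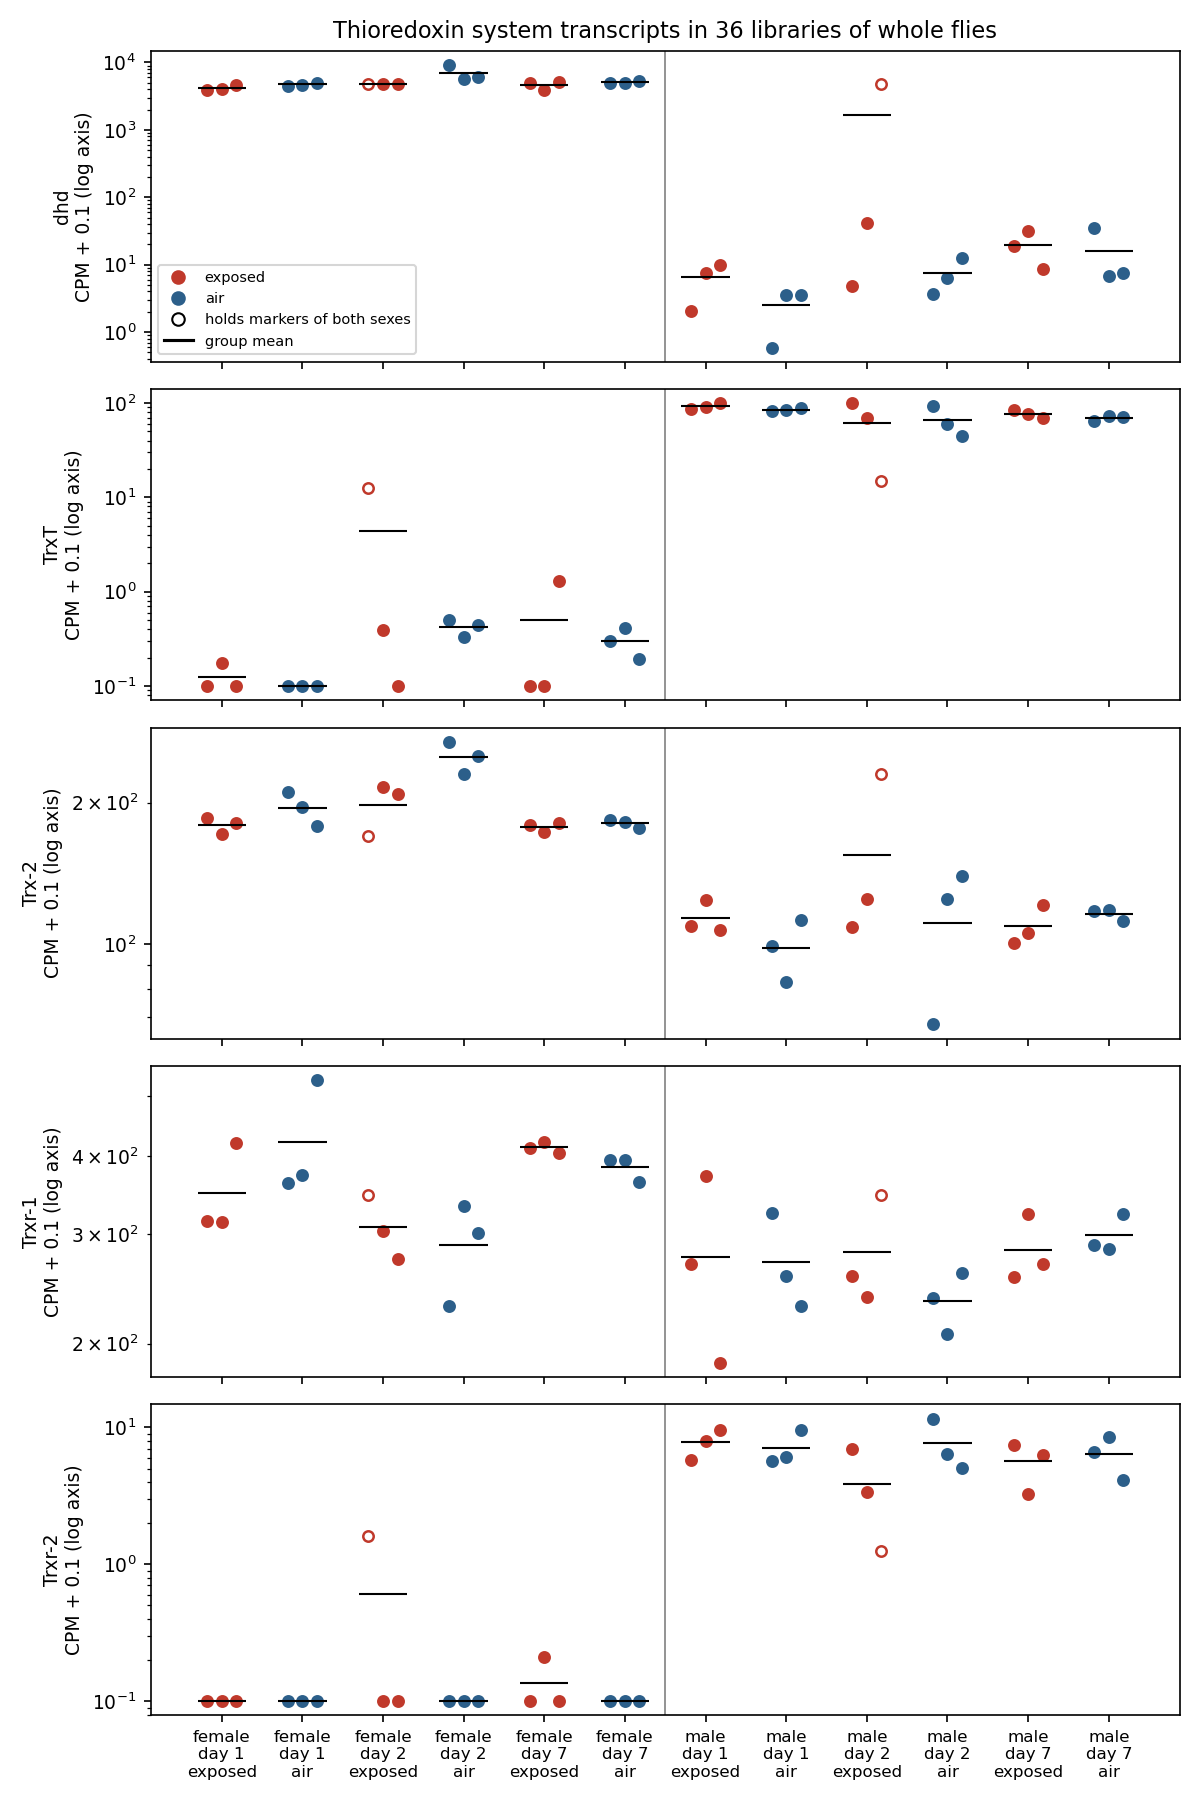
Level of each of the 5 genes in every library, in CPM scaled by TMM within each sex plus 0.1 on log axes, by sex, day and arm. Filled points are libraries, open points are the 2 mixed libraries and lines are group means; dhd is high in females, TrxT and Trxr-2 in males, and Trx-2 and Trxr-1 in both.

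The difference between the sexes was tested in one edgeR quasi-likelihood fit over all 36 libraries, averaged over the 3 days and adjusted over 13241 genes by Benjamini-Hochberg, as were all adjusted p-values here over the genes of their fit. In air flies all 5 genes passed, beside 86.7% of all genes. Of the 5, 3 were higher in females and 2 lower, beside 35.9% and 50.7% of all genes. In exposed flies 4 of 5 passed, beside 85.9% of all genes, and the same 4 passed without the mixed libraries. With so many genes differing between whole females and males, passing was common, and the sizes carry the information.

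In air flies dhd was higher in females by 9.61 ± 0.88 on the log2 scale (SE, 9 libraries a sex, edgeR adjusted p = 1.88e-10). TrxT was lower in females, with 19 counts pooled over the 9 air female libraries and 7839 over the 9 air male libraries, a depth-scaled ratio of males to females of 447 with an exact 95% interval of 286 to 744 for counting error. In exposed flies outside the mixed libraries that ratio was 475, with an interval of 292 to 831. The log2 difference of dhd, females minus males, was 6.19 ± 0.76 in exposed flies with the mixed libraries and 8.20 ± 0.54 without them. The fitted difference of TrxT in exposed flies was -7.57 with them and -9.40 without them.

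Trx-2 was higher in females by 0.85 ± 0.12 on the log2 scale in air flies (edgeR adjusted p = 4.22e-07), a fold of 1.80 with a 95% interval of 1.51 to 2.15. In exposed flies it was higher in females by 0.49 ± 0.12 (edgeR adjusted p = 0.000665), and by 0.62 ± 0.11 without the mixed libraries. Trxr-1 differed by 0.35 ± 0.13 in air flies (edgeR adjusted p = 0.0146) and by 0.26 ± 0.13 in exposed flies (edgeR adjusted p = 0.0625), or 0.25 ± 0.13 without the mixed libraries, but its direction depended on the scaling. With the size factors of DESeq2 in place of TMM the median difference of all genes moved to -1.06 from -0.69 in air flies, and Trxr-1 stood at -0.03. The size of the Trx-2 difference also depended on the scaling. With size factors it was 0.21 in exposed flies and 0.48 in air flies, below 0.60, where the TMM interval of air flies starts. Set against the median of all genes in air flies, Trxr-1 was higher in females by 1.04 with TMM and by 1.03 with size factors, and Trx-2 by 1.54 under both scalings.

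The neighbours of the dhd and TrxT pair did not share one pattern. On the far side of dhd, CG4198 starts 132 bases after it on the same strand, and CG4198 was lower in air females by 3.05 on the log2 scale (edgeR adjusted p = 1.58e-09), with medians over both arms of 3.85 CPM in females and 34.5 CPM in males. On the far side of TrxT, snf, which encodes a component of the splicing machinery, ends 79 bases from the 3′ end of TrxT on the opposite strand and was higher in air females by 1.63 (edgeR adjusted p = 1.78e-09). Thus dhd, with a female median of 4790.4 CPM scaled by TMM over all libraries, sits between 2 genes whose levels were higher in males.

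Related genes were compared between air females and air males in the same fit, in which 35.9% of all genes were higher in females and 50.7% lower. The counts of the lists are to be read against those shares. Of 7 other thioredoxin-domain genes, 1 was higher in females and 3 were lower, with a median log2 difference of -0.86 beside -0.69 for all genes. The 3 lower ones were CG8517, CG13473 and CG18130, with 5, 4 and 6 counts pooled over the 9 air female libraries, against 8582, 2006 and 1469 counts over the 9 air male libraries. Txl, a thioredoxin-like protein of the cytosol, was the one that was higher, by 1.22. Among 7 tested genes of glutathione synthesis and glutaredoxins, 3 were higher and 3 lower in females. Grx1t, a glutaredoxin, had no count in 9 air female libraries against 18.4 to 49.4 CPM in 9 air male libraries. CG15116, a relative of the glutathione peroxidases, had 1 count in air females against 26.8 to 63.6 CPM in air males.

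Ribonucleotide reductase, which thioredoxin supplies with electrons for making DNA precursors, had both subunits higher in females. RnrL was higher in air females by 6.70 and RnrS by 5.51 on the log2 scale, and with CG15116, MsrA, PHGPx and SelR all 6 enzymes of that list passed, 3 higher and 3 lower. Of 8 tested peroxiredoxin and sulfiredoxin genes, 3 were higher in females, including the cytosolic peroxiredoxin Jafrac1 by 1.32, and 4 were lower, with a median of -0.18. Of 5 genes that supply NADPH, Pgd of the pentose phosphate pathway was higher by 1.10 and 3 were lower, with a median of -0.98. Of 5 genes of the cnc-Keap1 pathway, GstD1 was higher and 4 were lower, with a median of -0.48. With size factors in place of TMM, the differences of all genes shift toward males, as given above for the median.

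**Figure D2:**
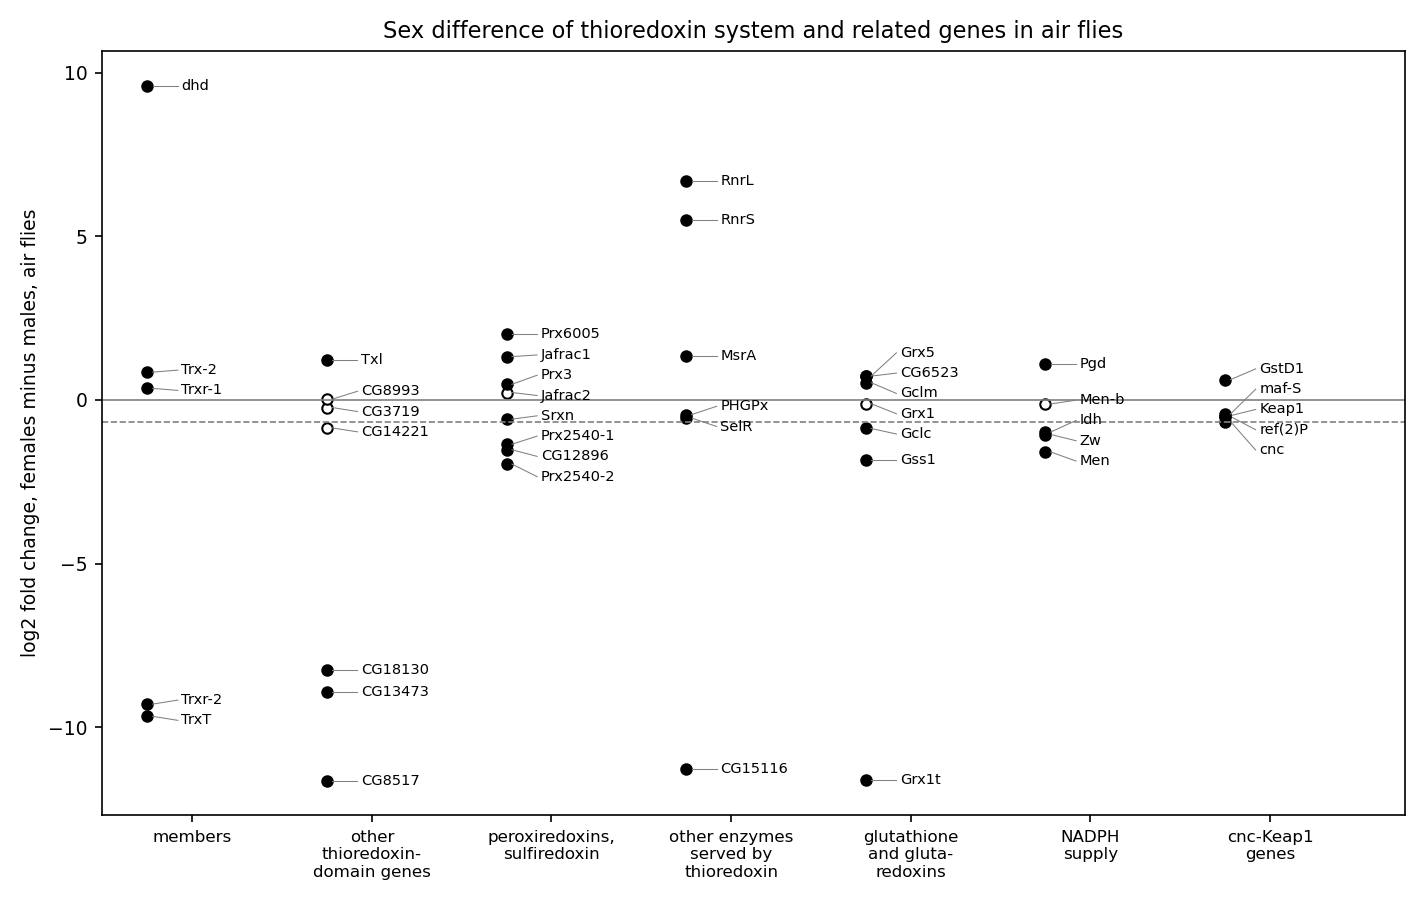
Log2 difference, air females minus air males, for the 5 genes and for related genes by list, with filled points for edgeR adjusted p below 0.05 and a dashed line at the median of all genes, -0.69. The fitted values of genes with few or no female counts, at the bottom, depend on a small prior count and are not bounds; dhd, RnrL and RnrS stand at the top.

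The low dhd signal of male libraries varied along with a yolk protein transcript. Across the 17 male libraries, dhd and Yp1, a yolk protein made in the fat body and the ovary, had a Pearson correlation of log2 CPM of 0.91 and a Spearman correlation of 0.89 (n = 17). The points share the library and its depth, so this is a description. As a share of the female median, dhd in male libraries ranged from 0.0104% to 0.780% with a median of 0.147%, and Yp1 from 0.0106% to 1.98% with a median of 0.159%. The sum of 14 oocyte genes stood at 2.76% to 7.81% of its female median in the same male libraries, and its correlation with dhd there was -0.39 by Pearson and -0.47 by Spearman. Of the 18 ovary and oocyte genes, 10 had a count in every one of these male libraries. The 14 genes of the sum were osk, nos, bcd, gnu, png, plu, gcl, CycB, CycB3, alphaTub67C, wisp, cort, exu and swa. CycB, exu and alphaTub67C held the most counts over all 36 libraries, 185579, 172606 and 151485. Whether transcripts of male tissue had a part in the oocyte sum was not tested. Whether female RNA or flies in male libraries had a part in the dhd signal of males was not tested.

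TrxT and Trxr-2 varied with the testis transcripts. Across the 17 male libraries the correlation of log2 CPM with the sum of 21 testis and sperm genes was 0.69 by Pearson and 0.82 by Spearman for TrxT, and 0.69 and 0.62 for Trxr-2. Between TrxT and Trxr-2 it was 0.48 and 0.58. In the mixed library titled male, TrxT stood at 12.7 CPM, 14.8% of the male median, Trxr-2 at 15.2% and roX1 at 14.8% of theirs. In the mixed library titled female the shares of the male median were 15.8% for TrxT, 25.3% for Trxr-2 and 17.9% for roX1, with 16 Trxr-2 counts behind the second of these. Conversely dhd reached 83.3% of the female median in the mixed library titled male and 103% in the one titled female.

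**Figure D3:**
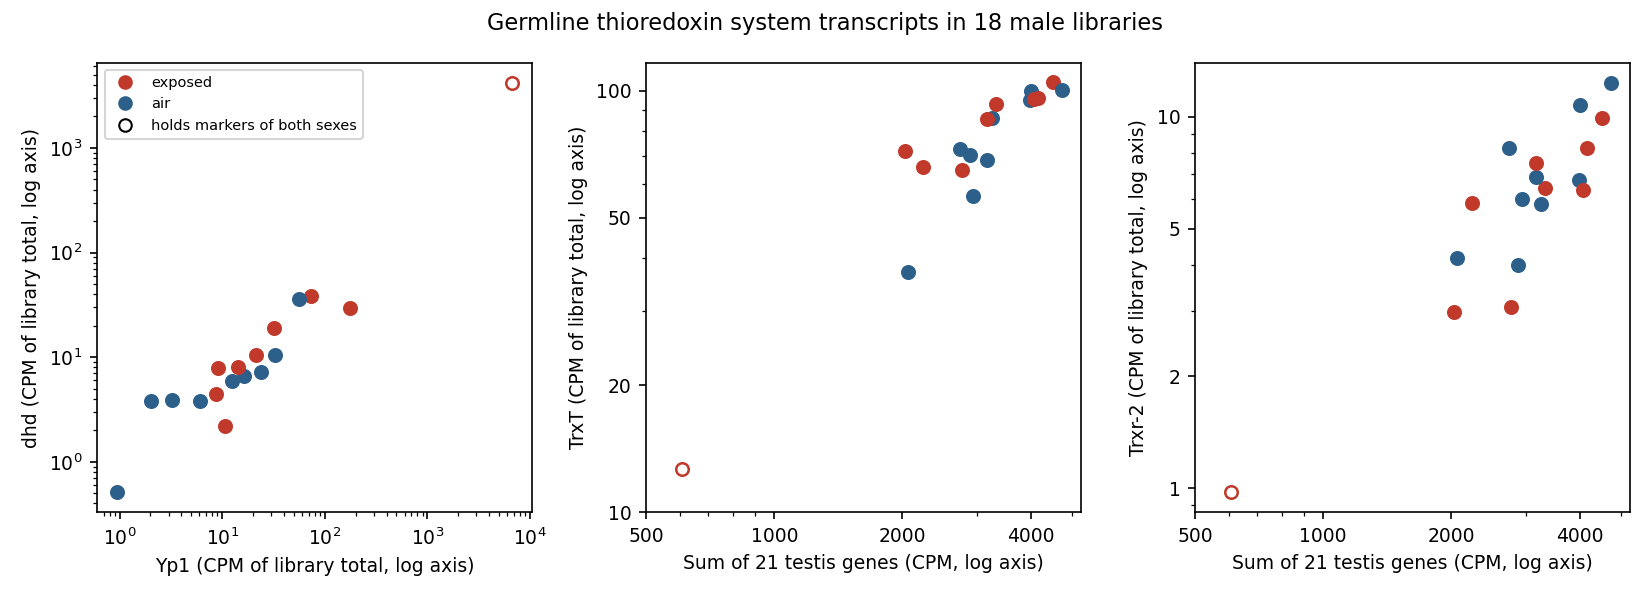
CPM of dhd against Yp1, and of TrxT and Trxr-2 against the sum of 21 testis genes, in 18 male libraries on log axes, with the mixed library as an open point. Outside the mixed library dhd stays at or below 38.7 CPM and is higher where Yp1 is higher, while TrxT and Trxr-2 are higher where the testis sum is higher.

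No gene of the 5 passed the test in any of the 6 comparisons of exposed with air flies. In females TrxT and Trxr-2 had too few counts to be tested, which leaves 3 genes there and 5 in males. Levels given for these comparisons are CPM scaled by TMM within each sex, unless said otherwise. Of all genes tested, 0.263% passed in females on day 1, 0.455% on day 2 and 0.0101% on day 7, and 0% in males on days 1, 2 and 7. These shares depended on the method and on single libraries. DESeq2 called 2.77% on day 1 and 1.26% on day 2 in females and 7.41% on day 2 in males. Without replicate 1 of the air females or replicate 3 of the exposed females of day 1 the female share on day 1 was 0%. In males on day 2 it was 18.8% without replicate 1 and 6.72% without replicate 2 of the exposed males, both of which leave the mixed library in, and 0% without the mixed library. At an unadjusted p below 0.05 the counts on days 1, 2 and 7 were 0, 2 and 0 of 3 genes in females, beside 12.7%, 9.52% and 3.28% of all genes, and 0, 1 and 0 of 5 in males, beside 3.17%, 21.8% and 0.932%. The 2 genes in females were dhd and Trx-2, both lower in exposed flies, and the 1 in males was dhd. Without the mixed libraries dhd alone was left in females on day 2, and none in males. DESeq2 called none of the 5 in these comparisons, but gave no adjusted p for dhd in males on any day.

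Among the 3 genes tested in females, the largest difference was that of dhd on day 2. It stood at 4744, 4859 and 4743 CPM scaled by TMM in exposed females, the first of these being the mixed library, and at 9208, 5726 and 6088 CPM in air females. The exposed libraries were tightly grouped and all below the air libraries, among which replicate 1 stood apart. The log2 difference, exposed minus air, was -0.55 ± 0.18 (SE, n = 3 each), with a 95% interval of -0.93 to -0.17. It did not pass after adjustment (edgeR unadjusted p = 0.00720, adjusted p = 0.288). Without the mixed library it was -0.53 (adjusted p = 0.454), and without replicate 1 of the air females, whose TMM factor was 0.70, it was -0.30 (adjusted p = 0.546). In CPM of all counts, with no TMM, that library held 6444 CPM beside 5766 and 6244 CPM in the other air females.

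Trx-2 leaned the same way in females on day 2, with 170 CPM in the mixed library and 216 and 208.5 CPM in the other exposed females, against 269.6, 230 and 251 CPM in air females. The difference was -0.34 ± 0.13 (edgeR adjusted p = 0.429), and -0.23 without the mixed library. Neither gene overlapped between arms in the direction of lower values, as was so for 6.38% of all genes. Trxr-1 overlapped, with 347, 303 and 274 CPM in exposed females and 230.2, 333 and 301 CPM in air females, a difference of 0.10 ± 0.18, against 0.012 without the mixed library and -0.04 without replicate 1 of the air females.

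On days 1 and 7 the differences of dhd and Trx-2 in females were smaller than on day 2. For dhd they were -0.17 ± 0.18 on day 1, with 3875, 4102 and 4560.4 CPM in exposed females and 4519, 4603 and 5018 CPM in air females, and -0.13 ± 0.18 on day 7, with 5008, 3858 and 5115 CPM in exposed females and 5000.5, 5006 and 5250.4 CPM in air females. The arms overlapped on both days. For Trx-2 the differences were -0.12 on day 1 and -0.02 on day 7, and for Trxr-1 -0.27 and 0.11. On day 7 all 3 exposed libraries of Trxr-1, at 413, 421 and 406 CPM, lay above the 395, 394 and 364 CPM of air females, as was so for 9.33% of all genes (edgeR adjusted p = 1.000).

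In males TrxT overlapped between arms on each day. On day 1 it stood at 86.0, 91.6 and 99.2 CPM in exposed males and at 81.9, 83.8 and 87.9 CPM in air males, a difference of 0.13 ± 0.41. On day 2 it stood at 99.2 and 68.8 CPM in exposed males outside the mixed library, which held 15.0 CPM, and at 93.7, 59.4 and 44.4 CPM in air males. The difference turned with the mixed library, at -0.11 ± 0.41 with it and 0.35 ± 0.25 without it. On day 7 it stood at 83.8, 76.5 and 69.8 CPM in exposed males and 65.0, 73.6 and 70.7 CPM in air males, a difference of 0.14 ± 0.41. The mixed library enters the shared estimate of spread. Without it the TrxT differences of day 1 and of day 7 were both 0.13 ± 0.22.

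Trxr-2 was counted thinly in males, with 14 to 99 counts in exposed libraries and 35 to 190 in air libraries, leaving out the mixed library, and its intervals were wide. On day 1 it stood at 5.72, 7.86 and 9.42 CPM in exposed males and 5.55, 5.97 and 9.49 CPM in air males. On day 2 it stood at 6.88 and 3.27 CPM in exposed males, with 1.15 CPM in the mixed library, and at 11.5, 6.34 and 4.98 CPM in air males. The day 2 difference was -1.01 with a 95% interval of -2.18 to 0.16, and -0.60 without the mixed library (adjusted p = 0.895). Groups overlapped on all 3 days.

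Trx-2 and Trxr-1 in males differed between arms by 0.21 and 0.03 on day 1, 0.48 and 0.26 on day 2, and -0.09 and -0.08 on day 7, on the log2 scale, all with adjusted p-values of at least 0.328. Without the mixed library both day 2 differences were 0.08. The 95% intervals without it, -0.44 to 0.59 for Trx-2 and -0.44 to 0.59 for Trxr-1, leave room for an increase of up to 1.51-fold in either gene.

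The apparent dhd response of males on day 2 rested on 1 library. Exposed males held 4.80, 41.1 and 4872 CPM, the last in the mixed library, and air males 3.56, 6.23 and 12.5 CPM. The groups overlapped in spite of a difference of 7.80 ± 1.72 (edgeR adjusted p = 0.0782). Without the mixed library the difference was 1.65 ± 0.85 with a 95% interval of -0.14 to 3.43 (adjusted p = 0.745). Under the rule that the series' own text names, over 1.5-fold with an unadjusted p below 0.05, dhd would count as changed, as would 21.4% of all genes in that comparison. Yp1, in CPM of all counts, stood at 8.78, 73.2 and 6700.2 CPM in the same 3 exposed libraries and 2.01, 12.5 and 33.0 CPM in air males.

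**Figure D4:**
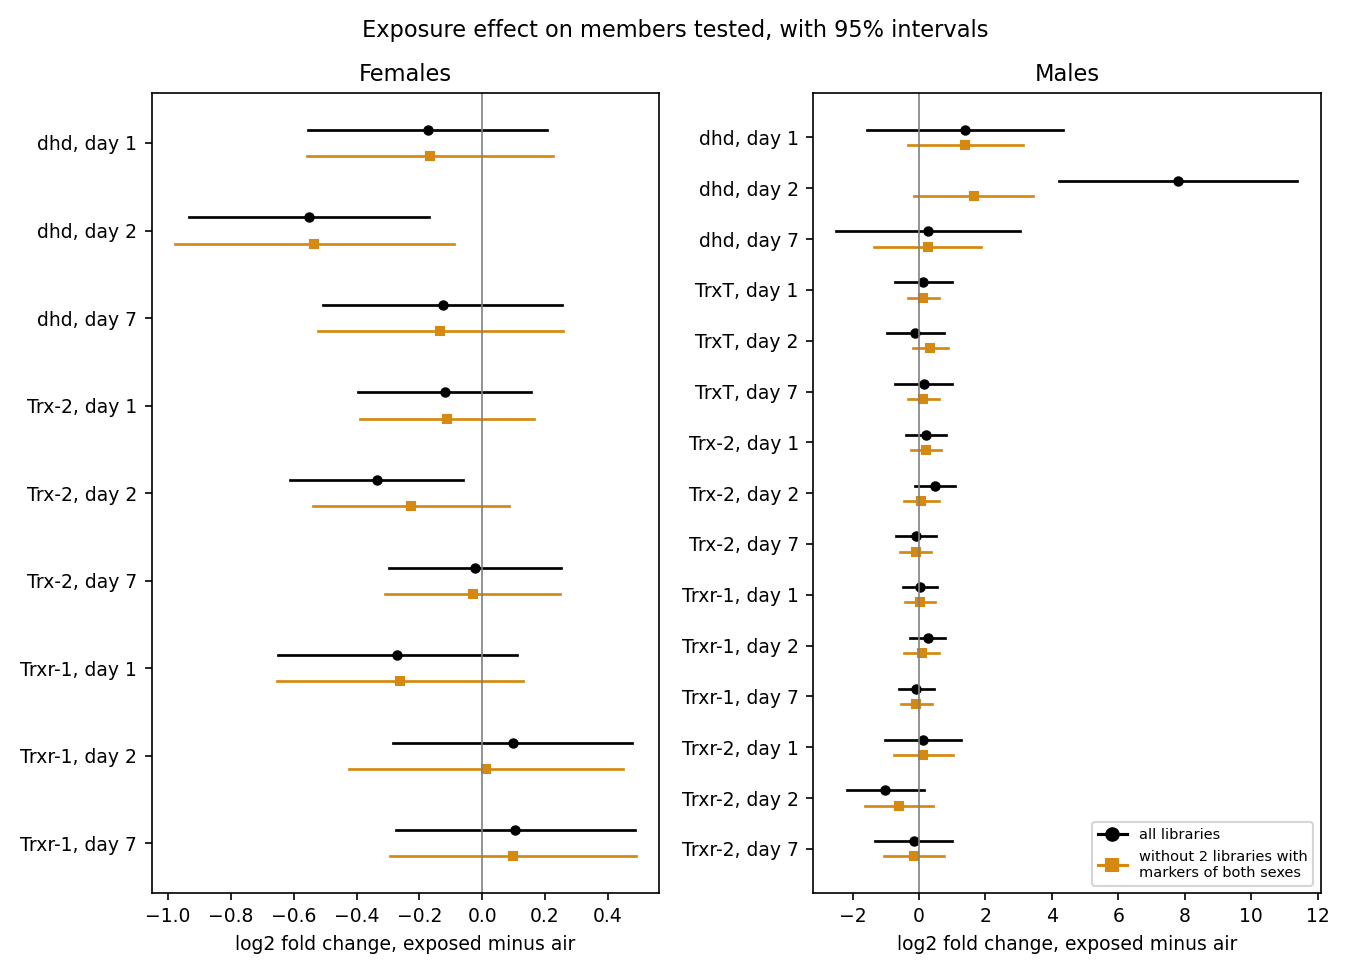
Log2 fold change, exposed minus air, with its 95% interval for each gene tested, by sex and day, from all libraries (black) and without the mixed libraries (orange); the axes of the sexes differ in range. Most intervals include 0, and the largest point, dhd in males on day 2, moves to 1.65 from 7.80 without the mixed library.

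The effect of exposure was compared between the sexes and over days in models of those differences. On day 1 no gene of the 5 was called for a different effect in females and males by edgeR, beside 0.0151% of all genes, and on day 7 none was, beside 0%. On both days 0 were reached at an unadjusted p below 0.05, beside 8.04% and 1.33% of all genes. DESeq2 called 0 on both days, but gave no adjusted p for dhd on either. On these days a female group held 0 to 12 TrxT counts and 0 to 1 Trxr-2 counts, so those 2 genes could scarcely be tested. On day 2, 2 of the 5 were called, dhd and Trxr-2, beside 12.2% of all genes. At an unadjusted p below 0.05, 4 of 5 were reached, beside 28.7% of all genes, and DESeq2 called 1, Trxr-2, and gave no adjusted p for dhd. Without the mixed libraries none of the 5 was called, beside 0.0808% of all genes. The change of the effect over days passed for none of 3 genes in females, beside 0.445% of all genes, and for none of 5 in males, beside 0%. At an unadjusted p below 0.05, 0 of 3 were reached in females, beside 10.7% of all genes, and 1 of 5 in males, beside 7.65%. That one was dhd, whose unadjusted p was 0.00379 in edgeR and 0.446 without the mixed library. DESeq2 called 0 in both sexes, but gave no adjusted p for dhd in males, so it could not call that gene.

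Other ovary transcripts, and yolk protein transcripts of fat body and ovary, were set beside dhd in females on day 2. Those of the eggshell fell, as did 2 of the 3 yolk protein genes. All 4 chorion genes listed, which follicle cells express late in egg formation, fell in exposed females, with log2 differences of -5.51 for Cp36, -5.29 for Cp38, -5.38 for Cp18 and -5.08 for Cp7Fb and edgeR adjusted p-values of at most 0.0172. Without the mixed library the differences were -5.10, -4.81, -5.12 and -5.96 in the same order of genes, and all 4 passed. Their sum was 62.9, 7.67 and 434.6 CPM in exposed females, the first in the mixed library, against 8595, 7441 and 4451 CPM in air females. The sum of 14 oocyte genes was 3682, 4284 and 4526 CPM in exposed females and 2861, 4078 and 4227 CPM in air females, so it overlapped between arms. None of those 14 passed, and CycB, exu and alphaTub67C hold the most counts among them. Of the 3 yolk protein genes, Yp2 and Yp3 fell, by 1.93 and 1.72 on the log2 scale (edgeR adjusted p = 0.00807 and 0.0194), and Yp1 differed by -1.33 (adjusted p = 0.0910). Without the mixed library the differences were -2.21, -1.72 and -1.47, and Yp2 passed, while Yp3 had an adjusted p of 0.0527. Their sum was 10469, 5285 and 10100 CPM in exposed females, the first in the mixed library, against 39194, 19116 and 19081 CPM in air females. Across the 17 female libraries the correlation of log2 level with dhd was 0.053 by Pearson and 0.076 by Spearman for the chorion sum, and -0.48 by Pearson and -0.21 by Spearman for the oocyte sum, as a description of libraries that share their scaling.

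**Figure D5:**
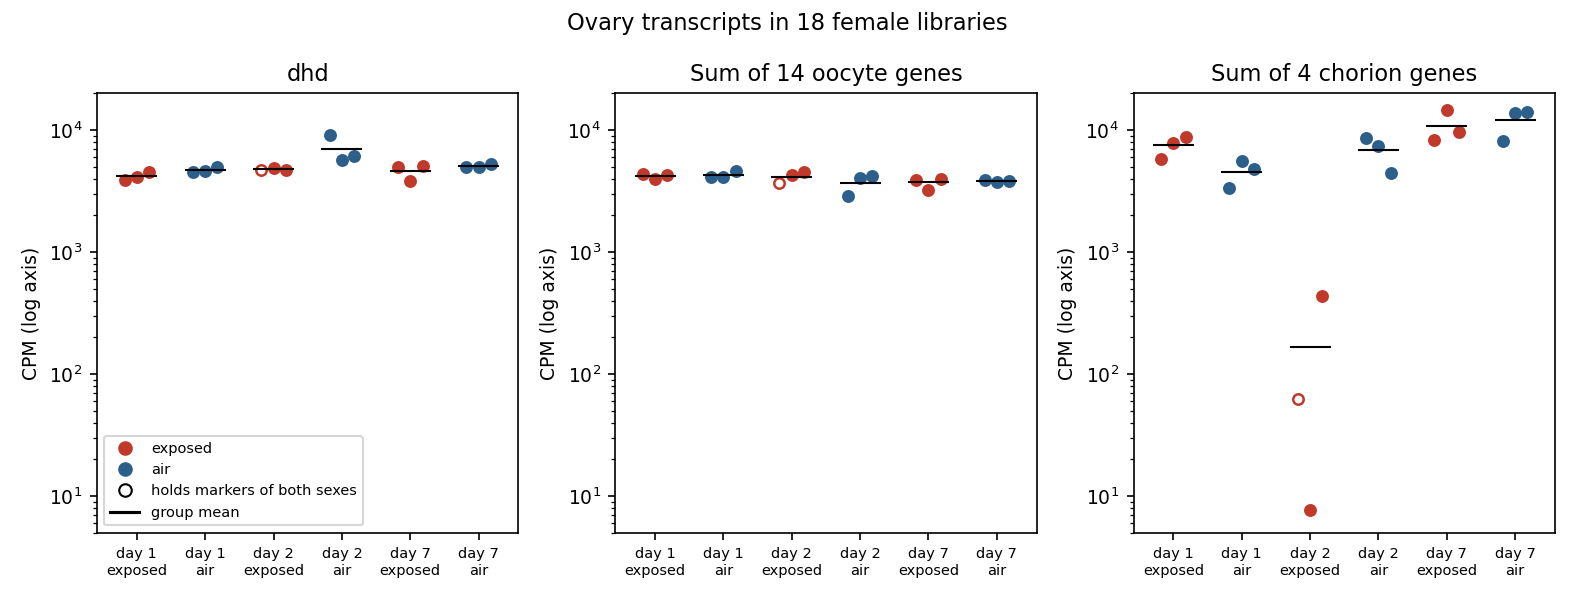
Level of dhd, of 14 oocyte genes summed and of 4 chorion genes summed in 18 female libraries, in CPM scaled by TMM on one log scale, with the mixed library open and lines at group means. On day 2 the chorion sum averages 168 CPM in exposed females and 6829 CPM in air females, while dhd averages 4782 CPM in exposed females and 7007 CPM in air females.

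Air flies gave the background drift over days. In females on day 2 against day 1, dhd differed by 0.57 (edgeR adjusted p = 0.259), Trx-2 by 0.36 (adjusted p = 0.298) and Trxr-1 by -0.55 (adjusted p = 0.265). None passed, beside 0.0101% of all genes, though all 3 had an unadjusted p below 0.05, as 12% of all genes did, and no overlap between the days, as 13.3% did. DESeq2 called 0 of them. Leaving out each library in turn gave 0.35 to 0.71 for dhd, 0.29 to 0.43 for Trx-2 and -0.66 to -0.35 for Trxr-1. These comparisons share the air libraries of day 2 with the day 2 exposure comparison. On day 7 against day 1, females differed by 0.11, -0.11 and -0.13 for dhd, Trx-2 and Trxr-1, none passing, beside 0% of all genes, with 0 at an unadjusted p below 0.05 and 0 by DESeq2.

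In air males none of the 5 passed on day 2 against day 1, beside 0.0622% of all genes. None passed on day 7 against day 1 either, beside 0.0699%. In both, 0 had an unadjusted p below 0.05 in edgeR, beside 8% and 8.8% of all genes. DESeq2 called 0 in both, but gave no adjusted p for dhd in either, or for Trxr-2 on day 7 against day 1. Male dhd stood at 34.4, 6.65 and 7.32 CPM in air males on day 7 and at 0.490, 3.41 and 3.39 CPM on day 1, without overlap, as was so in that direction for 12.9% of all genes. The difference was 2.70 ± 1.43 (edgeR adjusted p = 0.627). Leaving out the mixed library, which enters the shared estimate of spread, gave 2.70 ± 0.84 (edgeR unadjusted p = 0.00437, adjusted p = 0.115). Yp1 in the same libraries, in CPM of all counts, was 56.7, 16.4 and 23.9 CPM on day 7 and 0.944, 3.27 and 6.12 CPM on day 1, and its part in the dhd difference was not tested.

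Ordered from low to high, the 6 group means of a gene within a sex seldom separated from their neighbours. Overlap was checked between neighbours in that order, with no share of all genes beside it. For dhd in females the order ran from exposed flies of day 1 at 4179 ± 349 CPM (SD, n = 3) through exposed flies of day 7, air flies of day 1 and exposed flies of day 2, all overlapping with their neighbours, to air flies of day 7 at 5086 ± 143 CPM and air flies of day 2 at 7007 ± 1915 CPM. The last 2 groups did not overlap each other, and air flies of day 7 did not overlap exposed flies of day 2, next below. Further down, air flies of day 7 did overlap exposed flies of day 7 and air flies of day 1. For Trx-2 in females the lowest 5 groups overlapped, from 178 CPM in exposed flies of day 7 to 198 CPM in exposed flies of day 2, and air flies of day 2 stood apart at 250.1 CPM. For Trxr-1 in females the means ran from 288 CPM in air flies of day 2 to 422 CPM in air flies of day 1, and the only neighbours that did not overlap were exposed and air flies of day 7. In males all neighbours overlapped for each of the 5 genes, with Trxr-1 between 234 and 298 CPM.

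Of the 6 lists of related genes, no member passed in any comparison of exposed with air flies with all libraries in the fit. The nearest were peroxiredoxins of a tandem cluster of near-identical copies, between which reads may be split. CG12896 stood at 38.6, 133 and 27.7 CPM in exposed females on day 1 and at 8.80, 15.9 and 11.1 CPM in air females, a difference of 2.48 ± 0.52 (edgeR adjusted p = 0.0541), which passed without the mixed library (adjusted p = 0.0370). Prx2540-1 in the same females stood at 107, 374 and 94.4 CPM in exposed flies and 23.1, 66.1 and 44.4 CPM in air flies, a difference of 2.10 ± 0.48 (edgeR adjusted p = 0.0706). The third copy, Prx2540-2, overlapped between arms in these females. Its replicates 1 and 3 of exposed females stood at 34.0 and 15.7 CPM, against 28.9, 19.7 and 38.6 CPM in air females. Replicate 3 thus lay below every air female and replicate 2 above them all. In males on day 1 CG12896 stood at 35.6, 503 and 82.4 CPM in exposed males and 18.8, 19.6 and 18.6 CPM in air males, a difference of 3.45 ± 0.75 (edgeR adjusted p = 1.000). Prx2540-1 stood at 105, 1630.1 and 174 CPM in exposed males and 70.2, 99.1 and 64.3 CPM in air males, a difference of 3.03 ± 0.71 (edgeR adjusted p = 1.000), and Prx2540-2 differed by 1.83. For CG12896 and Prx2540-1 all exposed males of day 1 lay above the air males, as was so for 6.33% of all genes. Without the mixed library, which enters the shared estimate of spread, 0 of the 8 tested genes of that list passed in males on day 1. Replicate 2 was the highest exposed library for all 3 copies in both sexes. Medians over the 8 tested peroxiredoxin and sulfiredoxin genes were 0.28 in females and 0.55 in males on day 1, beside a median near 0 for all genes. In females on day 2, 0 of 4 tested thioredoxin-domain genes and 0 of 5 tested genes of glutathione synthesis and glutaredoxins had a positive difference, and none passed. Their medians were -0.36 and -0.43, beside -0.0016 for all genes. Without the mixed library they were -0.38 and -0.44, beside -0.012 for all genes. These values share the air libraries of day 2.

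The other named genes of the lists were chosen as those with the smallest p in any comparison of exposed with air flies, and none passed. On day 1 in females the log2 differences were 0.48 for PHGPx, a peroxidase that thioredoxin reduces, -0.48 for Gclm, a subunit of the enzyme that starts glutathione synthesis, -0.56 for the thioredoxin-domain gene CG3719, -0.38 for Idh and 0.55 for Keap1. On day 2 in females they were -0.52 with and -0.48 without the mixed library for the thioredoxin-domain gene CG8993, -0.42 and -0.36 for Grx5, a mitochondrial glutaredoxin, and 0.55 and 0.46 for Men-b, a malic enzyme. GstD1, a glutathione transferase, differed by 0.56 in males on day 1. On day 2 in males RnrS and RnrL differed by 4.75 and 5.29 with the mixed library and by 0.90 and 1.17 without it, Pgd by 1.01 and 0.43, CG6523 by 0.61 and 0.36, CG18130 by -1.15 and -0.68, and cnc, the transcription factor that Keap1 holds back, by -0.33 and -0.25.

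Within females Trx-2 and Trxr-1 varied in opposite directions, with a correlation of log2 level over 17 libraries of -0.72 by Pearson and -0.67 by Spearman. Over 17 male libraries the values were 0.12 and 0.044. For dhd and Trx-2 in females the Pearson value was 0.75 and the Spearman value 0.37. The scaling factor of the library gave Pearson values of -0.62 with dhd, -0.47 with Trx-2 and 0.44 with Trxr-1 in females, but Spearman values of 0.11, -0.034 and -0.015. All these points share a library and its scaling. The lists of similar genes that follow rank by Pearson alone, with no Spearman value. In females, replicate 1 of the air flies of day 2 held the highest dhd, 9208 CPM, and a scaling factor of 0.70. Its part in the dhd list was not tested. The genes most like dhd over the 17 female libraries, of 6851 with a mean of at least 10 CPM, were eIF3i, VhaM9.7-b, Pglym78, Sec61gamma and Syx16, with correlations of 0.87 to 0.90. Those most like TrxT over 17 male libraries, of 7127 genes, were CG2528, CG2291, asRNA:CR44370, S-Lap3 and CG13244, at 0.89 to 0.95. Over deviations from the sex mean in 34 libraries, CG5532, ND-AGGG and RpL38 were most like Trx-2 at 0.79 to 0.80, CG9784, CG11791 and CCT3 most like Trxr-1 at 0.71 to 0.73, and Pif2, CG34161 and CG31407 most like Trxr-2 at 0.81 to 0.86.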

How the data were processed

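The deposited files hold raw read counts per gene for each of 36 libraries, which the authors made with fastp, STAR on dm6 and HTSeq, per the submitters' processing notes. Versions, annotation release and strand setting of that processing are not stated there. Libraries were made with a Lexogen QuantSeq kit, per the labels' protocols, so counts do not scale with transcript length. Symbols were matched to the BDGP6.54 annotation. The entry with no symbol, at most 0.000107% of a library, was left out. Tests used edgeR 4.0.16 (quasi-likelihood, TMM, filterByExpr with a minimum count of 10) in R 4.3.3: exposure and day within each sex (18 libraries, 6 groups), sex comparisons over all 36. The threshold was an adjusted p of 0.05. Alternatives were DESeq2 1.42.0, its size factors, other filters, other sets of libraries, a replicate block and leaving out each library. Scripts were tested on simulated counts. Replicate pairs differed beyond sampling noise (lowest chi-square per degree of freedom 9.94 over 32 pairs), so none was counted as 1 sample. The 5 genes, the related lists and the named-gene rule (up to 3 genes per list with the smallest p, and the genes most correlated with each of the 5) were chosen with earlier results of these data known. Correlations left out the mixed libraries. Related genes and neighbours named for their sex difference, and the chorion genes, were chosen after their values were seen.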

Additional observations from a re-analysis of the deposited data

Results flagged for a closer look

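The effect of exposure on day 2 differed between the sexes for dhd and Trxr-2 by a test of the difference itself (edgeR, all 36 libraries). For dhd, the female effect less the male effect was -8.23 ± 1.69 on the log2 scale (adjusted p = 0.0157), and -2.22 ± 0.96 without the 2 mixed libraries (adjusted p = 0.619). For Trxr-2 it was 6.71 ± 1.92 (adjusted p = 0.0319). Without the mixed libraries no female library of day 2 had a Trxr-2 count, and the adjusted p was 1.000.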

How the results depend on the processing

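With settings other than leaving out a library, 435 of 449 values of the 5 genes kept their direction and side of the threshold, and 104 of 109 counts stayed within 1.5 times. DESeq2 gave no adjusted p in 12 of these cases, most of them for dhd. In females on day 2 the fit of all 36 libraries called 2 genes, TrxT and Trxr-2, which the female fit did not test. Among those exposed females the mixed library held 133 TrxT and 16 Trxr-2 counts. The other 2 libraries together held 3 TrxT counts and 0 Trxr-2 counts. In males on day 2 the count of calls was 1 without a filter on low counts, 1 with all 36 libraries and 1 under the rule of over 1.5-fold with an unadjusted p below 0.05, each time dhd, at 7.75, 7.73 and 7.80 on the log2 scale. Those dhd calls in males rest on the mixed library titled male. Under the 1.5-fold rule 21.4% of all genes would count as changed in that comparison. For the unfiltered fit and the fits of all 36 libraries such shares are not given here. Those counts of calls are therefore not read as results about the 5 genes. Without the mixed libraries TrxT in males on day 2 was 0.35, and the count of genes whose effect differed between the sexes on day 2 was 0, with TrxT at -1.49 and Trxr-2 at 0.60. Trxr-1, females minus males, was -0.043 in exposed flies and -0.031 in air flies with size factors and with DESeq2, and its difference of effects between the sexes on day 2 was 0.12 with both. Replicate numbers were not used as pairs in the main tests. Of 18 pairs of the same number, 4 correlated above 0.1. All were on day 2, at 0.29 and 0.37 in females and 0.20 and 0.13 in males. With 3 libraries in each group these values cannot settle whether samples of that day were paired. With a replicate block the counts of calls were unchanged from those without it, and Trxr-1 in males on day 1 was -0.014. The causes of these changes were not tested.

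Leaving out each library in turn, 695 of 744 values and 158 of 168 counts held in the same sense. Counts of calls in this paragraph stand without the shares of all genes, so they are not read as results about the 5 genes. The exposed minus air differences that turned sign were, from lowest to highest, -0.040 to 0.22 for Trxr-1 in females on day 2, -0.25 to 0.25 for Trxr-1 and -0.047 to 0.42 for Trxr-2 in males on day 1, -0.65 to 0.35 for TrxT in males on day 2, and -0.23 to 1.45 for dhd and -0.40 to 0.11 for Trxr-2 in males on day 7. In males on day 2 the calls ran from 0 to 2, and dhd from 1.65 to 8.40. Between air days, Trxr-1 in females ran from -0.22 to 0.086 on day 7 against day 1, and in males Trx-2 ran from -0.034 to 0.43 and Trxr-2 from -0.31 to 0.41 on day 2 against day 1, and Trxr-2 from -0.41 to 0.12 on day 7 against day 1. Over days in males 0 to 1 genes were called, dhd with an adjusted p of 0.0181 to 0.979. The difference of effects between the sexes ran on day 1 from -0.14 to 1.89 for TrxT and -0.43 to 0.026 for Trxr-2. On day 2 it ran from -8.83 to -2.13 for dhd, -1.02 to 4.60 for TrxT, -0.96 to -0.37 for Trx-2, -0.28 to 0.079 for Trxr-1 and 1.03 to 7.49 for Trxr-2, with 0 to 4 calls. On day 7 it ran from -1.63 to 0.067 for dhd, -4.30 to 1.41 for TrxT and -0.020 to 0.12 for Trx-2. Air females of day 1 held 0 TrxT counts and exposed females 1, with 0 Trxr-2 counts in both. The day 1 ranges of these 2 genes therefore measure no effect in females. The TrxT range of day 7 rests on 6 counts in air females and 12 in exposed females. Trxr-1, females minus males in exposed flies, ran from 0.19 to 0.36 and passed without some libraries.

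Depth is low for 2 genes in male libraries, with 14 to 190 counts for Trxr-2 and 6 to 377 for dhd, and TrxT and Trxr-2 could not be tested within females.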
